A study of Mus musculus with 4 samples.

Results

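The collagen chain genes were followed in tumours of iNRAS-475, a mouse melanoma line with doxycycline-inducible NRAS, grown in the dermis of nude mice. The members were the genes with a single platform symbol of the form Col, type number, a, chain number, each read from its brightest probe set, and there were 42 of them among 18193 genes. The tumours compared were taken 24, 48 and 72 h after doxycycline was withdrawn and, as the control, while the mice still drank 2 mg/ml doxycycline. Each condition had 1 array of 1 piece of tumour. No difference therefore has a replicate error or a p-value, and the condition cannot be told apart from the mouse or piece it was read in. All hosts were nude mice and all tumours came from 1 line, whose cells were injected into the skin and had formed tumours of 200 to 500 mm3 after 6 weeks. Withdrawal removed the drug and the NRAS signal together, which cannot be told apart either. Line and host are both mouse, so the probe sets read the collagen RNA of tumour cells and of host cells as 1 signal, and more collagen-making cells cannot be told apart from more RNA per cell.

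Collagens are secreted proteins whose alpha chains wind around each other into a rope-like helix. Fibrillar types I, III and V form the fibres that give dermis and scar their strength, and types II and XI form those of cartilage. Type IV is laid down as a sheet in basement membranes, for instance around vessels, nerves, fat cells and muscle fibres. Fibril-associated types such as XII and XIV sit on the surface of fibres, while the remaining types form beaded filaments (VI), anchoring fibrils (VII), short-chain networks (VIII and X), cell-surface proteins (XIII, XVII, XXIII, XXV) or proteoglycans of the basement membrane zone (XV, XVIII). Fibroblasts are the main source of fibrillar collagen in skin.

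Of the 42 genes, 34 had a mean intensity at or above the 40th percentile of all probe sets, 24.9, and all 34 were also at or above it on the control array. They were 10 of 11 fibrillar, 5 of 6 type IV, 7 of 9 fibril-associated and 12 of 16 other genes. The 8 dimmer ones were Col4a4, Col6a5, Col9a2, Col13a1, Col17a1, Col19a1, Col24a1 and Col26a1, with intensities between 8.37 and 32.7 and differences from the control between -0.28 and 0.42. Differences are given as the later array minus the control on the scale log2(intensity + 32), unless another array is named, and 2-fold stands for a difference of at least 1. The arrays had median intensities between 33.3 and 34.0. Of 9 melanocyte markers 6 had a mean at or above 24.9, and Sox10 read 3771, 3613, 4681 and 3844 from the control to 72 h. Mitf read 50.3, 56.5, 93.1 and 115, and the pigment cell gene Pmel read 73.1, 49.8, 103 and 199.7 and was 2-fold higher at 72 h, at 1.14. Dct, Slc45a2 and Gpr143 were dim, between 25.7 and 83.8, and Tyr, Tyrp1 and Mlana lay under 24.9 on average. The defining melanocyte markers were thus partly present. The 72 h array stood apart in its skeletal muscle markers: 8 of 9 were 2-fold higher there, against 1 at 24 h and 0 at 48 h. Of all genes 2.29%, 0.266% and 0.754% were at 72, 24 and 48 h. Myh4 and Tnnt3 read under 24.9 on every other array and passed the level filter only through the 72 h array. The count therefore partly follows from the filter. Myh1, also listed, read between 15.6 and 18.9 and was left out by it.

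The bases upstream of 3 collagen genes are shown because their genes went different ways: Col1a2 and Col3a1 encode fibre chains that were higher after withdrawal, and Col8a1 encodes a network chain that was lower. Each is the 250 bases before the gene's start in RefSeq's GRCm38.p6 annotation, 5′ to 3′ on the gene's strand. Capitals mark exact matches on either strand to any of 5 motifs. The NF-Y motif was searched as CCAAT and the GC box as GGGCGG. The TATA box was searched as TATAAA. The AP-1 motif was searched as TGANTCA, and a motif with a SMAD box as CAGACA.
Col1a2, chr6:4505368-4505617, plus strand: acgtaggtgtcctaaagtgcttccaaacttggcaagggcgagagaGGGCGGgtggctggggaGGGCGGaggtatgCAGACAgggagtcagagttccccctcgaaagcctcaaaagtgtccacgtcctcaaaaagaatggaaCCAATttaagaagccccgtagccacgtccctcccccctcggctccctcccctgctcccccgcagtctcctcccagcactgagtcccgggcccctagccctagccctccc
Col3a1, chr1:45311288-45311537, plus strand: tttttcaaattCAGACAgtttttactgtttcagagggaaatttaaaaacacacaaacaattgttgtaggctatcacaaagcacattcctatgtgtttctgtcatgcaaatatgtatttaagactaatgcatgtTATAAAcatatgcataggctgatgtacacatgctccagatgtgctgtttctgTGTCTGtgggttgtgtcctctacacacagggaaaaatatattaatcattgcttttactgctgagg
Col8a1, chr16:57754738-57754987, minus strand: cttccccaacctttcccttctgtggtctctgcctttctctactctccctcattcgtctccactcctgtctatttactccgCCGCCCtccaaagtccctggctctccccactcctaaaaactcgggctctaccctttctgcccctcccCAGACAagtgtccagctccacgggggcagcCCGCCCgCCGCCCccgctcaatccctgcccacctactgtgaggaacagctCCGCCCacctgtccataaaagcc
Col1a2 held CCAAT at -109 from the start, 2 GC boxes and 1 CAGACA. Col3a1 held TATAAA at -117 and 2 CAGACA, whereas Col8a1 held 4 GC boxes and 1 CAGACA. Windows were found for 33 of the 42 genes, 36 windows in all. GGGCGG was in 21 of the 36, against 32.7% of all 32851 windows, and CCAAT was in 13, against 33.8%. TATAAA was in 5 (12.4% of all windows), CAGACA in 8 (17.1%) and TGANTCA in 1, that of Col6a1 (6.75%). The 11 genes with a window among those 2-fold higher at 72 h had 12 windows, of which 6 held GGGCGG, 4 CAGACA and 3 CCAAT. These matches describe the letters of the windows only.

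Collagen genes were little different from the control at 24 h, and 15 of the 34 were 2-fold higher at 72 h. At 24 h 0 were 2-fold higher and 0 were 2-fold lower, where 0.266% and 0.0666% of all 13522 genes were, and 12 of 34 lay above the control, against 49% of all genes. At 48 h 3 were 2-fold higher (0.754% of all genes) and 0 were 2-fold lower (1.04%), and 25 lay above the control, against 45.3%. At 72 h 15 were 2-fold higher, 44.1% of the 34 against 2.29% of all genes, and 0 were 2-fold lower, against 1.63%. Of the 15, 14 were among the 21 collagen genes with a mean intensity of 200 or more. At that brightness 172 of 3851 genes of any kind were 2-fold higher. The 13 dimmer collagen genes had 1 that was 2-fold higher and a median of 0.03 at 72 h. Of the 34 genes 27 lay above the control at 72 h, against 46.8% of all genes. Collagen genes had medians of -0.08, 0.18 and 0.71 in time order, while all genes had 0.00 each time. Over all 42 members, without the level filter, the medians were -0.07, 0.03 and 0.22. Col5a1, Col6a1, Col8a2 and Col12a1 were among the 15 and fell short of 2-fold under at least 1 other way of computing the difference. All of these differences share the control array. With the 72 h array left out, the highest count is the 3 at 48 h. The 72 h array was the brightest of the 4 for 24 of the 34 genes, against 26.9% of all genes, and the 24 h array the dimmest for 20, against 21.2%. The control array was the dimmest for 8, against 27.3%. For 24 genes the order was 24 h below 48 h below 72 h, which 19.1% of all genes showed.

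**Figure D1:**
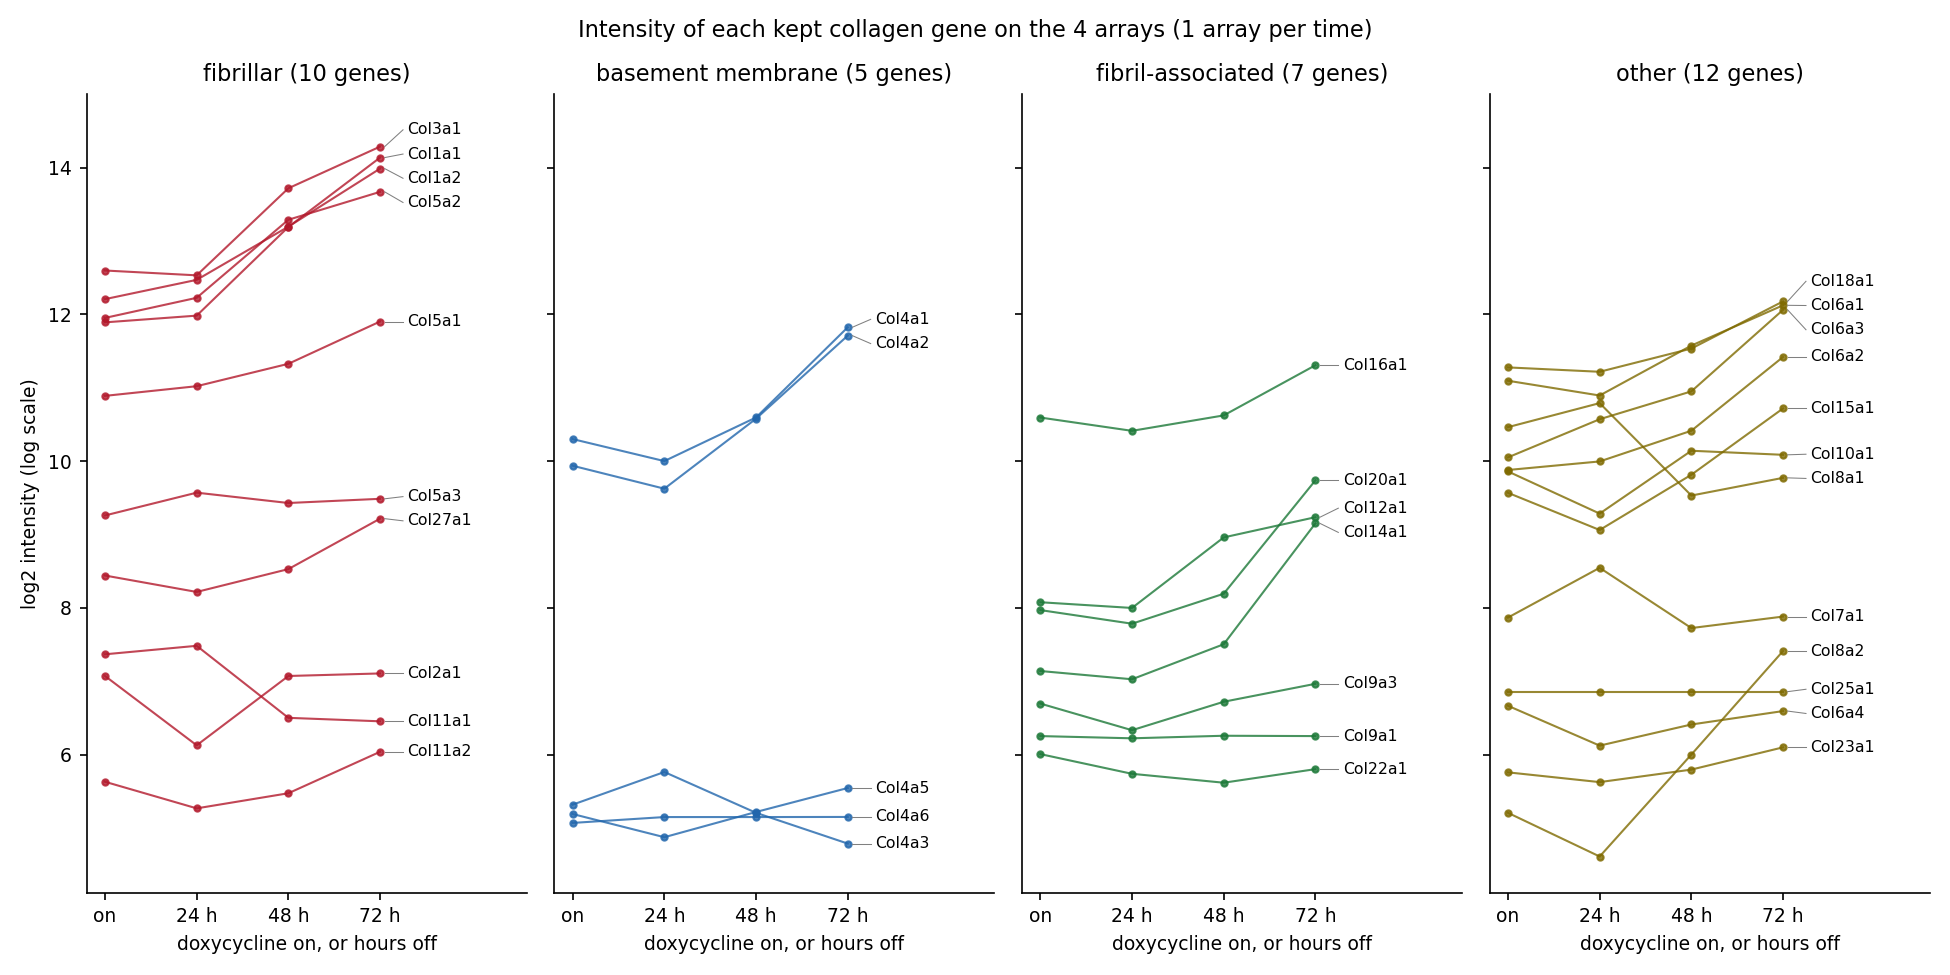
Intensity of the 34 collagen genes above the level filter on the 4 arrays, on a log2 axis, with 1 line per gene and 1 panel per class. The lines of Col1a1, Col1a2, Col3a1 and Col5a2 climb from 24 h on, those of Col4a1 and Col4a2 climb together, and those of Col8a1 and Col11a1 drop between 24 and 48 h; heights of different genes are not comparable, since probe sets differ in brightness.

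The chains of the major fibres, types I, III and V, were the clearest case. Col1a1, the principal chain of type I collagen, had intensities of 3797 on doxycycline and 4046, 9348 and 18005 at 24, 48 and 72 h off. It was 4.71-fold higher at 72 h, a difference of 2.24 that ranked 35 among all 13522 genes and first among collagens. Its partner in the type I helix, Col1a2, read 4728.5, 5673, 9377 and 16226, with differences of 0.26, 0.98 and 1.77. By their brightest probe sets both genes of type I collagen thus differed by at most 0.26 at 24 h and were brightest at 72 h. Other probe sets at 24 h were at 0.33 for Col1a1 and, for Col1a2, at 0.18 and, the dimmest, 0.58.

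Col3a1, the sole chain of type III collagen, which is laid down early in healing wounds, read 6197, 5919.97, 13476 and 19970. Its differences were -0.07, 1.12 and 1.68, and its 72 h value is the highest in the whole table. A dimmer Col3a1 probe set read 205, 277, 665 and 1560.1 and differed by 0.39, 1.56 and 2.75. Both probe sets place the gene above the control at 48 h and higher again at 72 h.

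Type V collagen starts fibres and limits their width, and its chains went apart. Col5a2 read 3959.8, 4788, 10008 and 13026, with differences of 0.27, 1.33 and 1.71, the highest of any collagen at 48 h. Col5a1 read 1896, 2078, 2567 and 3828 and was 2-fold higher at 72 h, just inside the limit, while its other probe sets were at 0.89 and 0.78. Col5a3, a chain of less widespread use, read 613, 760.1, 689 and 717 and stayed within 0.30 of the control. Of the 3 chains only Col5a2 was 2-fold higher at both 48 and 72 h.

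Fibrillar chains best known from cartilage and other tissues were mixed. Col11a1 read 165, 179, 90.6 and 87.7, with differences of 0.10, -0.69 and -0.72, the lowest collagen difference at 72 h. Col11a2, another chain of type XI collagen, read 49.5, 38.5, 44.4 and 65.8 and was at 0.26 at 72 h. Col2a1, the chain of type II collagen, read 69.9 at 24 h against 134.5 on doxycycline, a difference of -0.71, and its 48 h value equalled that of the control. Col27a1, a fibrillar chain of cartilage and developing tissues, read 347, 298, 369 and 595 and differed by 0.72 at 72 h, although its other probe set read 168, 173, 319 and 682 and was at 1.84, close to the course of types I and III. With the mean over its probe sets the gene was at 1.28, 2-fold higher. The 10 fibrillar genes had a median of 0.09 at 24 h, 0.30 at 48 h and 0.86 at 72 h. In that order 6, 7 and 9 of them lay above the control, against 49%, 45.3% and 46.8% of all genes. The numbers 2-fold higher were 0, 3 and 5, against 0.266%, 0.754% and 2.29% of all genes.

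The type IV genes split by chain. Col4a1 and Col4a2 encode the chains that build nearly every basement membrane, and they lie next to each other on chromosome 8 as a head-to-head pair. Col4a1 read 1261, 1024, 1546 and 3624 and Col4a2 read 980.1, 789, 1529 and 3349.6. Both were below the control at 24 h, at -0.29 and -0.30, and 2-fold higher at 72 h, at 1.50 and 1.74. The chains of the more restricted type IV networks were dim and near the control. Col4a3 read 39.9, 54.3, 36.9 and 27.6, with -0.27 at 72 h. Col4a5 read 36.5, 29.3, 37.2 and 46.7, with 0.20. Col4a6 read 33.6 on doxycycline and 35.5 at each later time, with 0.04. The class median, 0.20 at 72 h, is that of Col4a5 and does not describe the bright pair, while with types XV and XVIII added it was 0.89.

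All 7 fibril-associated genes lay below the control at 24 h, between -0.27 and -0.02, as 5816 of all 13522 genes did. At 72 h 3 of the 7 were 2-fold higher, against 2.29% of all genes. Col14a1, whose protein binds type I fibres and is prominent in dermis and tendon, read 141, 130.4, 182 and 569, with differences of -0.09, 0.30 and 1.80. Col20a1 read 251, 220.4, 293 and 854 and differed by -0.16, 0.20 and 1.65. Both were near the control until 48 h and differed by more than 1 from the 48 h array at 72 h. Col12a1, a fibre-surface chain of dense connective tissue, followed the fibrillar course instead, with 270.0, 256, 498 and 603 and differences of -0.07, 0.81 and 1.07. Col16a1, whose probe set was the brightest of the class, read 1545, 1363, 1577 and 2532 and differed by 0.70 at 72 h. The type IX chains Col9a1 and Col9a3 and the type XXII chain Col22a1 differed by 0.00, 0.21 and -0.13 there, with intensities between 49.1 and 125 on every array. Class medians were -0.16, 0.03 and 0.70 at 24, 48 and 72 h.

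Type VI collagen forms beaded filaments close to cell surfaces. Its 3 classical chains were all 2-fold higher at 72 h, where 2.29% of all genes were. Col6a3 read 1061, 1521, 1979 and 4273 and had the greatest difference after Col1a1, 1.98. It was also 0.51 above the control at 24 h, where Col6a1 and Col6a2 were at -0.20 and 0.11. Col6a1 read 2187.5, 1903, 3049 and 4460.4 and differed by 1.02 at 72 h. Col6a2, its neighbour on chromosome 10, read 941, 1021, 1364 and 2738 and differed by 1.51. Col6a4, a relative of Col6a3, read 102, 69.7, 85.1 and 96.6 and stayed below the control throughout, at -0.39, -0.19 and -0.05.

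The chains of type VIII collagen, a short-chain network collagen known from vessel walls and the cornea, moved in opposite directions. Col8a1 read 1411, 1771, 739.6 and 874, with differences of 0.32, -0.90 and -0.67. Set against the 24 h array, the 48 h array differed by -1.22 and the 72 h array by -0.99. Col8a2 read 36.9, 24.5, 64.0 and 170.3 and differed by -0.29, 0.48 and 1.55. The bright chain was thus brightest on the control and 24 h arrays and the dim chain on the 72 h array.

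Col15a1 and Col18a1 encode collagens with sugar side chains that lie at basement membranes, and the end of the Col18a1 protein can be released as endostatin. Col15a1 read 759, 534, 900.2 and 1684, and it was below the control at 24 h, at -0.48, and 2-fold higher at 72 h, at 1.12. Col18a1 read 2481, 2381, 2965 and 4629 and differed by 0.89 at 72 h, just outside the 2-fold limit, with its other probe set at 0.37. Both were brightest at 72 h and dimmest at 24 h.

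The remaining chains showed no 2-fold difference from the control. Col7a1, whose product anchors the epidermal basement membrane to the dermis, read 234, 374, 212 and 236, so it was higher by 0.61 at 24 h and near the control later. Col10a1, a chain known from growth-plate cartilage, read 929, 624, 1129 and 1087, with -0.55 at 24 h and 0.22 at 72 h, while the cartilage markers were dim, with a median intensity between 24.0 and 28.5 on every array. Col7a1 and Col10a1 thus had their widest differences at 24 h and in opposite directions. Col23a1, a cell-surface chain, read 54.1, 49.4, 55.6 and 68.6 and differed by 0.22 at 72 h. Col25a1, another one, read 116 on all 4 arrays without any difference. Equal values on at least 2 arrays occurred in 4 of the 34 genes (Col2a1, Col4a6, Col9a1 and Col25a1) and in 36.8% of all genes.

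The 15 genes that were 2-fold higher at 72 h reached that level in different ways. At 24 h 9 of them lay below the control and 6 above it, between -0.48 and 0.51, and all 15 were higher at 48 h than at 24 h and higher at 72 h than at 48 h. The part of the 72 h difference that was present at 48 h, on the log2 scale, lay between 12.1% (Col20a1) and 77.8% (Col5a2). For the 5 fibrillar genes it was 43.0% to 77.8%. For Col4a1 and Col4a2 it was 19.2% and 35.9%, for the type VI chains 34.5% to 46.5%, and for Col15a1 and Col14a1 21.2% and 16.9%. The 5 genes with more than 50% were Col1a1, Col1a2, Col3a1, Col5a2 and Col12a1. Classes did not go one way: the fibrillar Col5a1 was at 43.0%, and the fibril-associated Col12a1 was at 75.7% where Col14a1 and Col20a1 had the lowest shares. These shares come from 1 array at each time and were not tested.

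**Figure D2:**
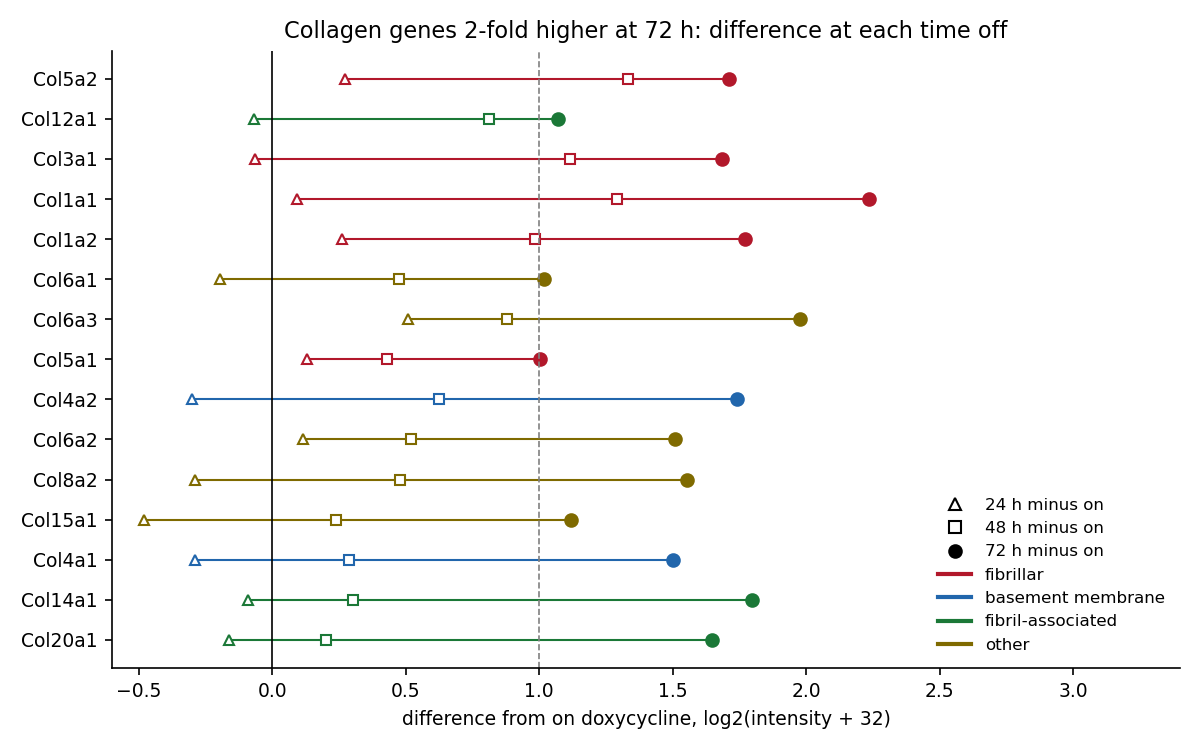
Difference from the control at 24 h (triangles), 48 h (squares) and 72 h (filled circles) off doxycycline for the 15 collagen genes 2-fold higher at 72 h, in log2(intensity + 32), ordered by the part of the 72 h difference present at 48 h. Col5a2, at the top, was at 1.33 at 48 h and 1.71 at 72 h, and Col20a1, at the bottom, was at 0.20 and 1.65; the dashed line marks 2-fold.

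The 72 h array was also set against the 24 h array, which leaves the control out. In that comparison 14 of the 34 genes were 2-fold higher at 72 h, where 1.97% of all genes were, and 0 were 2-fold lower, against 1.85% of all genes. The median was 0.87, with 28 of 34 above 0, against 46.5% of all genes. Col1a1, at 2.14, and Col4a2, at 2.04, had the greatest differences, followed by Col14a1 at 1.89, Col8a2 at 1.84 and Col20a1 at 1.81. Col5a1, at 0.87, was the 1 gene of the 15 that was not 2-fold higher here. Col8a1 (-0.99), Col11a1 (-0.82), Col7a1 (-0.60) and Col4a3 (-0.53) were lower at 72 h than at 24 h. Col4a2, Col14a1, Col8a2 and Col20a1 had all been below the control at 24 h.

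Steps between neighbouring times were smaller for most genes. From 24 to 48 h 26 of the 34 were higher (44.8% of all genes), and from 48 to 72 h 29 were (47.1%). Between 24 and 48 h Col1a1, Col3a1 and Col5a2 were 2-fold higher at the later time, by 1.20, 1.18 and 1.06, where 0.569% of all genes were. Col8a1 was 2-fold lower, where 1.01% were. Other probe sets were at 1.17 for Col3a1 and 1.07 for Col5a2. Those of Col1a1, at 0.47, and of Col8a1, at -0.92 and -0.26, fell short of 2-fold. Between 48 and 72 h 6 genes were 2-fold higher at 72 h, against 0.917% of all genes. They were Col14a1, Col20a1, Col4a1, Col4a2, Col6a3 and Col8a2, none of them fibrillar by its brightest probe set. Other probe sets of the fibrillar Col3a1, Col1a2 and Col27a1 were 2-fold higher at this step, at 1.19, 1.06 and 1.03, and the brightest Col1a1 probe set was at 0.94.

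Other probe sets of the same genes were not used to choose the members' values and mostly went the same way. The 42 genes had 82 probe sets, and the 34 genes had 35 besides the brightest, of which 22 were at or above the level of 24.9. At 72 h 21 of these 22 had the sign of the brightest probe set. For the genes 2-fold higher at 72 h, 10 had such a second reading, and 10 of their 15 other probe sets were 2-fold higher too. The dimmest Col14a1 probe set above the filter differed by 0.00 and the dimmer Col20a1 probe sets by 0.86 and 0.67, against 1.78 for the next brightest of that gene. The second Col1a1 probe set differed by 1.52 and the other Col1a2 probe sets by 2.00 and 1.55. At 48 h the second Col1a1 probe set was at 0.81, short of 2-fold. The other Col8a1 probe sets were at -0.68 and -0.78 at 72 h, next to -0.67 for the brightest, although 1 of them was at 0.02 at 48 h. The 13 probe sets below the filter lay between -0.10 and 0.11.

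**Figure D3:**
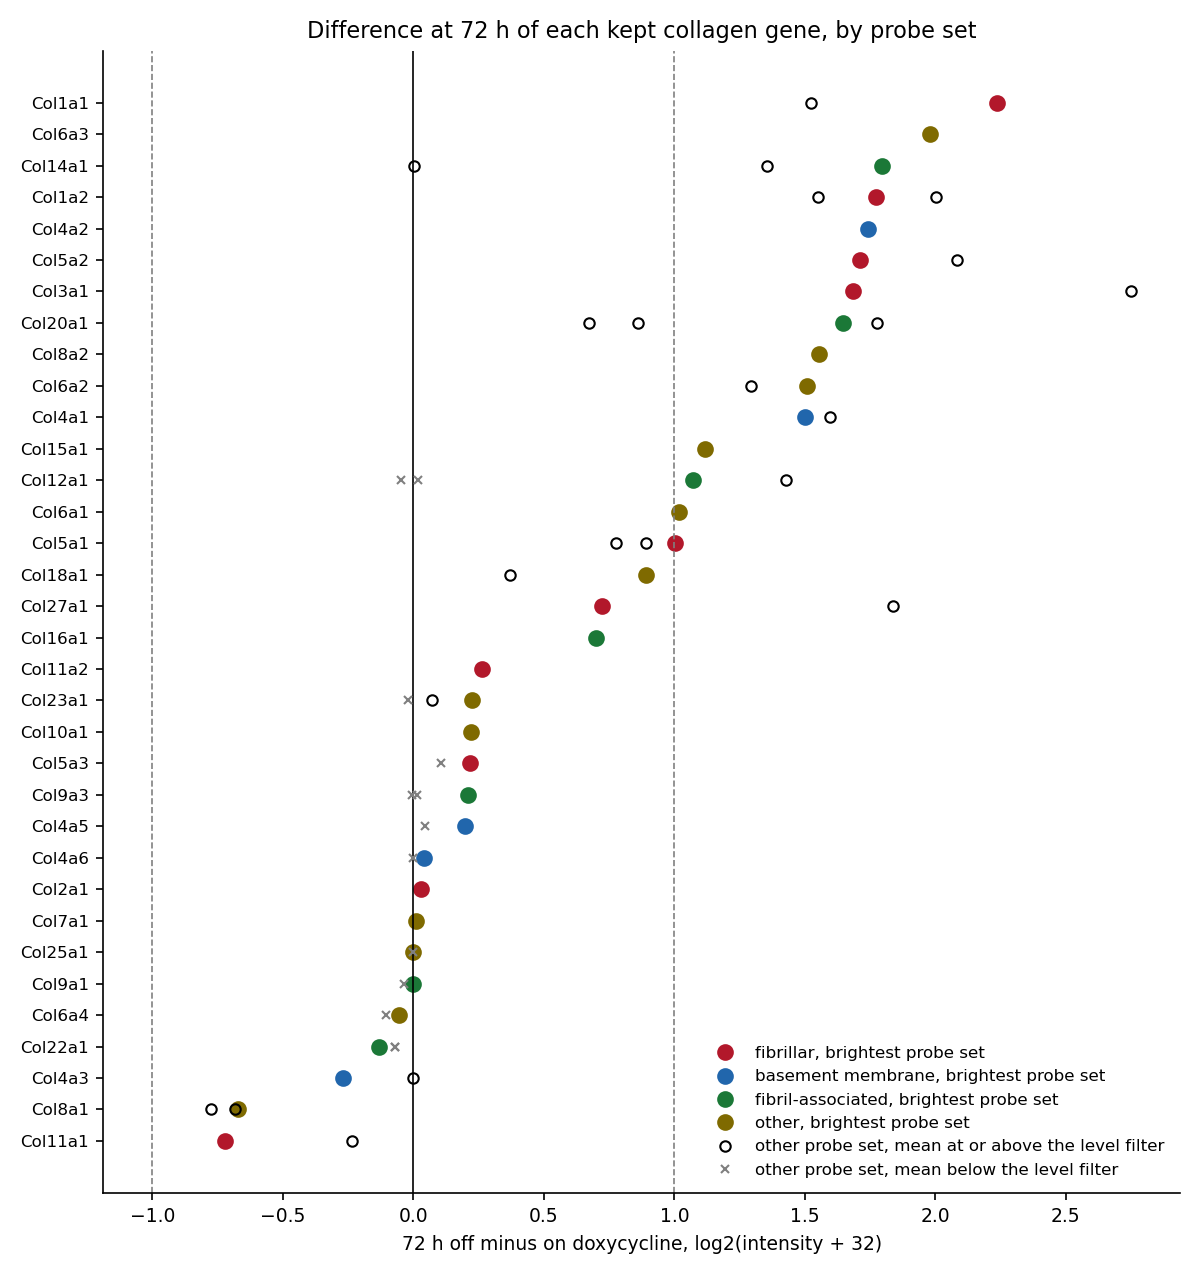
Difference of the 72 h array from the control, in log2(intensity + 32), for the 34 collagen genes above the level filter, with the brightest probe set in its class colour and the gene's other probe sets as open circles or, below the level filter, grey crosses. Of the genes, 15 lie at or beyond the dashed line at 1 and none at or beyond -1, and open circles beside them range from 0.00 (Col14a1) to 2.75 (Col3a1).

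Some members adjoin each other on a chromosome. Col3a1 and Col5a2, neighbours on chromosome 1, differed by 1.12 and 1.33 at 48 h and by 1.68 and 1.71 at 72 h. Col4a1 and Col4a2 were at 1.50 and 1.74 at 72 h. Col6a1 and Col6a2 were at 1.02 and 1.51. The dim neighbours Col4a5 and Col4a6 on the X chromosome were at 0.20 and 0.04, while Col1a1 and Col1a2, which do not adjoin, were at 2.24 and 1.77. The other measured neighbours each had a member below the level filter. Col4a4 and Col4a3 were at 0.08 and -0.27 at 72 h, in opposite directions. Col9a1 and Col19a1 were at 0.00 and -0.13, and Col6a5 and Col6a4 at 0.00 and -0.05.

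The enzymes that modify and fold collagen differed less from the control than the chains did. Of 18 such genes 0 were 2-fold different from the control at any time. At 72 h 2.29% of all genes were 2-fold higher and 1.63% lower, so a count of 0 among 18 is near that share. Their median was 0.16 at 72 h, with 14 above the control, against 46.8% of all genes. P3h3, a member of the prolyl 3-hydroxylase family, was the 1 gene with a 2-fold difference in any comparison. It read 278 at 72 h against 113 at 24 h, a difference of 1.09, where 1.97% of all genes were 2-fold higher. Serpinh1, the collagen chaperone HSP47, read 2261, 2386, 1930.2 and 3098. P4ha1, the catalytic subunit of prolyl 4-hydroxylase, read 667, 473, 384 and 331, a difference of -0.95 at 72 h. Both were picked for naming with their values known.

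Of 8 genes for propeptide removal and cross-linking 1 was 2-fold higher at 72 h, against 2.29% of all genes, and their median was 0.02. Loxl1, a lysyl oxidase family enzyme that cross-links elastin and collagen, read 559.5, 465, 957 and 1544 and differed by 1.41. Pcolce, which speeds the removal of procollagen tails, read 936, 918, 1019 and 1885, a difference of 0.98 from the control and of 1.01 from the 24 h array. Of 7 collagen receptor and uptake genes 1 was 2-fold higher at 72 h, again against 2.29% of all genes. It was Mrc2, a receptor that takes collagen into cells for breakdown, with 276, 236, 255 and 756 and a difference of 1.35. The median of the 7 genes was 0.02 as well. Single genes of these lists thus differed as much as the chains, and the lists as a whole did not.

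Collagen-cutting enzymes were mixed. Of 6 collagenase and gelatinase genes 3 were 2-fold higher at 72 h (2.29% of all genes) and 0 were 2-fold lower (1.63%), and the median was 0.93. Mmp2, a gelatinase, read 2114, 1442, 2528 and 4522, with differences of -0.54, 0.25 and 1.09. Mmp14, a membrane collagenase that activates Mmp2, was at 0.15, 0.65 and 1.21, and the fibroblast protease Fap at 0.45, 0.56 and 1.47. Ctsk, the collagen-cutting cathepsin K, was at 1.10 at 48 h and 0.77 at 72 h. Mmp2, as the type IV pair, was lowest at 24 h. Mmp9, another gelatinase, picked with its values known, read 306, 209, 597 and 189 and so was highest at 48 h and below the control at 72 h, at -0.61. Mmp13, a collagenase, was at 0.36 at 72 h.

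Among 9 genes of TGF-beta signalling, a pathway known for driving collagen transcription, the ligands diverged. At 72 h 2 of the 9 genes were 2-fold higher (2.29% of all genes) and 1 was 2-fold lower (1.63%). Tgfb1 read 666, 433, 262 and 229.8, with a difference of -1.41 at 72 h. Tgfb2 read 106, 96.8, 324 and 314, with 1.33. The co-receptor Tgfbr3 was at 1.21. The list's median was 0.65 at 72 h, with 5 of 9 above the control, against 46.8% of all genes.

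**Figure D4:**
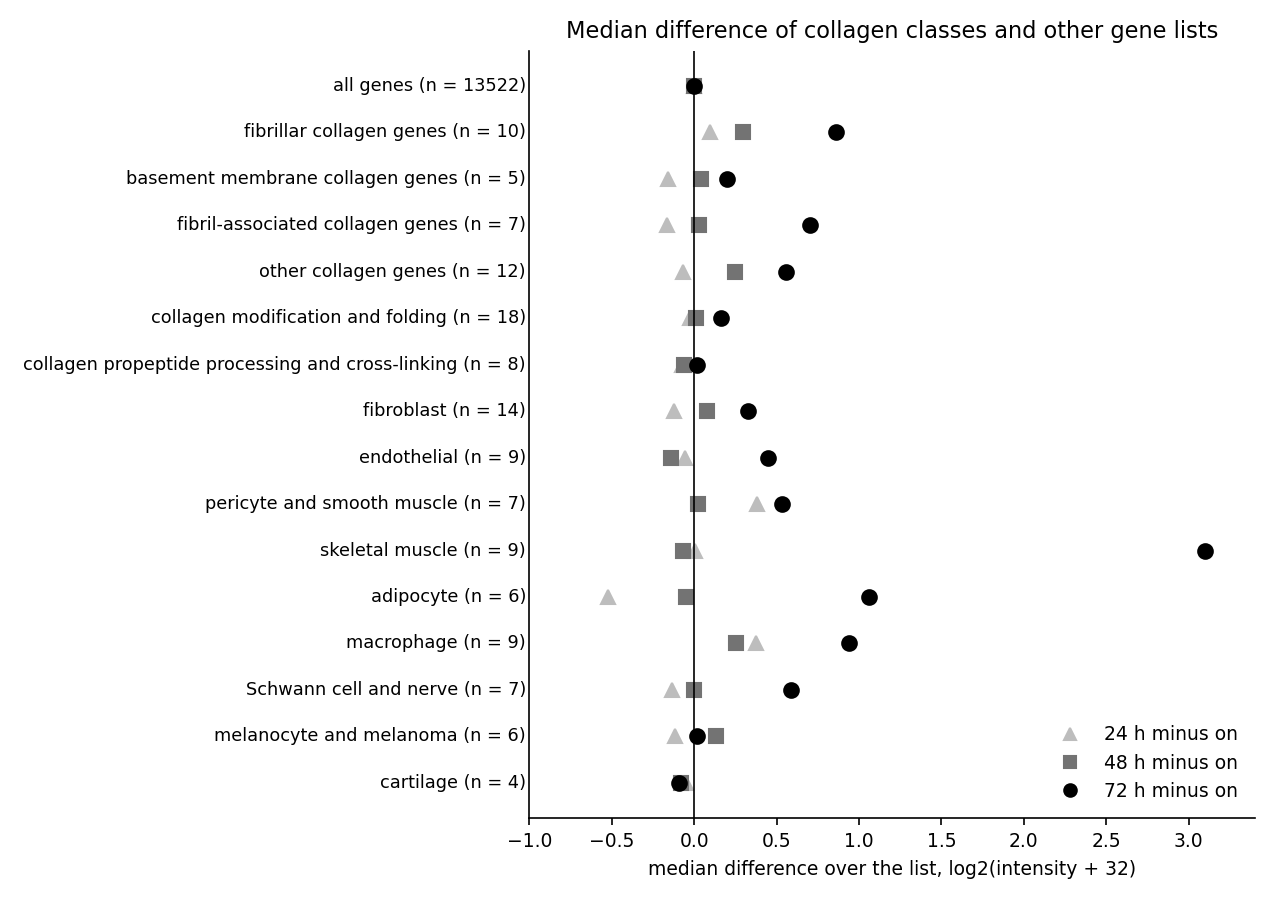
Median difference from the control at 24 h (light triangles), 48 h (grey squares) and 72 h (black circles), in log2(intensity + 32), for all genes, the 4 collagen classes, 2 collagen enzyme lists and 9 marker lists, with the number of genes above the level filter. The median of all genes is 0.00 at each time, the fibrillar median reaches 0.86 at 72 h, and the skeletal muscle median, 3.10, is the highest value plotted.

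Markers of the cells that make collagen were mixed. Of 14 fibroblast markers 6 were 2-fold higher at 72 h (2.29% of all genes) and 0 were 2-fold lower (1.63%). Their median was -0.12, 0.08 and 0.33 at 24, 48 and 72 h. Their summed intensity was 8087, 7289, 8253 and 14168. The 6 were Lum (3.23), Dcn (2.88), Dpt (1.69), Mfap5 (1.50), Cd34 (1.48) and Fap (1.47). The 4 below the control at 72 h were Fbln2 (-0.88), Pdgfra (-0.57), Thy1 (-0.25) and Twist2 (-0.11), so both groups held matrix genes and surface markers. The fibroblast list thus had its highest sum on the 72 h array, with 4 of its 14 genes below the control there. Most of the rise in the sum came from Lum and Dcn. Lum read 319 on doxycycline and 3252 at 72 h, and Dcn 394 and 3108, so the sum does not describe the list as a whole. What part fibroblasts had in the collagen values was not tested.

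Markers of other cells also differed on the 72 h array, and their part in the collagen values was not tested. The summed intensity of 10 skeletal muscle markers was 560, 823, 497 and 5047, and of 8 adipocyte markers 674, 371, 836 and 3350. Endothelial markers summed to 757, 682, 693 and 1185, with 9 of 9 above the control at 72 h, against 46.8% of all genes. Macrophage markers summed to 4968, 8569, 6990 and 12975. The adipocyte sum was lowest at 24 h, when 6 of 6 genes lay below the control with a median of -0.52. Of the 34 collagen genes 21 lay below the control at 24 h, and of all 13522 genes 5816 did. At 48 h Col1a1, Col3a1 and Col5a2 were 2-fold higher than the control by their brightest probe sets. The muscle median was then -0.07, the adipocyte median -0.05 and the endothelial median -0.14. No gene of these lists was 2-fold higher, and the adipocyte gene Fabp4 was at 0.59. At the same time 1 gene each was 2-fold higher in the fibroblast (Lum, 1.47), macrophage (Cd68, 1.24) and Schwann cell (Cdh19, 1.95) lists, against 0.754% of all genes. Set against the 24 h array, the 48 h medians were -0.12 for muscle, 0.60 for adipocyte and 0.015 for endothelial markers. In that comparison 2 of 6 adipocyte genes were 2-fold higher and 1 of 9 muscle genes was 2-fold lower, against 0.569% and 1.01% of all genes. Pericyte and smooth muscle markers summed to 1990, 2968, 2211 and 2667. At 72 h 1 of 7 was 2-fold higher (Rgs5, 1.76) and 1 was 2-fold lower (Cspg4, -1.94), against 2.29% and 1.63% of all genes. Acta2 read 462 on doxycycline and 980 at 24 h. Schwann cell markers summed to 1889, 1867, 4198 and 4491. Most of that rise came from Cdh19, with 691, 878, 2753 and 2834, and S100b, with 362, 327, 724 and 575. The median of the 7 genes was 0.00 at 48 h, with 3 above the control and 2 below. Keratinocyte markers summed to between 311 and 340 on every array, with none 2-fold different, and cartilage markers to between 221 and 238. Melanocyte markers summed to 4117, 3918, 5074 and 4361, most of which was Sox10.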

How the data were processed

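RNA of 4 tumours was measured, 1 array per condition. The labels' protocols give Trizol extraction from a piece of about 50 mg, after skin had been trimmed off, and an Affymetrix mouse array hybridised with cRNA labelled from 10 ug of RNA. The deposited values are intensities on a linear scale, 1 for each probe set and array, from 6.99 to 19970. MAS5 and RMA appear in the submitters' processing notes without a role, so how the arrays were scaled is unknown. Equal values on at least 2 arrays occurred in 48.0% of the 45037 probe sets.

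Symbols came from the platform annotation: 34945 probe sets had 1 symbol, 932 several and 9160 none listed. The brightest probe set by mean was taken per gene, and the level filter kept the 13522 genes whose mean reached the 40th percentile of all probe sets. The log2 of the intensity plus a pseudocount of 32 was computed from the deposited intensities, without further normalization. This pseudocount lowers the differences of dim genes. With 1 array per group no test was run, and counts use a difference of at least 1. The number of arrays, 4, limits every value. Classes follow the type number. Types VI, VII, VIII, X, XIII, XV, XVII, XVIII, XXIII, XXV and XXVI are the other class. Values on all arrays are printed for genes 2-fold different in any comparison, their partner chains and the brightest of each class. Other lists name up to 4 genes with a 2-fold difference, and further genes were added after seeing their values, as were the marker genes named. The members, lists and motifs were chosen with earlier results of these data known. RefSeq (GRCm38.p6) had 44 genes of this name form, of which Col28a1 and Col6a6 were not analysed here. The computation of differences was tested on simulated data. Python 3.11.15 with pandas 2.3.3, NumPy 2.4.6 and matplotlib 3.10.9 was used. Alternatives tried were a pseudocount 4 times smaller (8) or 4 times greater, the mean over a gene's probe sets, the removal of _x_at and _s_at probe sets, quantile normalization, centring on the median, a level filter at the 60th percentile or none, and types XV and XVIII counted with type IV. No pseudocount, the removal of tied genes and the 48 h array in place of the 72 h array were added after seeing the data.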

Additional observations from a re-analysis of the deposited data

How the results depend on the processing

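No count of 2-fold higher collagen genes moved by over 1.5 times under 10 settings that change the computation. With the 48 h array in place of the 72 h array the count of 15 is 3 and the median 0.18. Of the 15 genes, 11 stayed 2-fold higher at 72 h under all 10 settings. Col5a1 was at 0.97, 0.99 and 0.89 with the 4 times greater pseudocount, median centring and the mean over probe sets, Col12a1 at 0.88 and 0.62 with that pseudocount and the mean, and Col6a1 and Col8a2 at 0.99 and 0.86 with that pseudocount. Col18a1 reached 1.01 with quantile normalization and Col27a1 1.28 with the mean over probe sets. The count of genes 2-fold lower at 72 h than at 24 h, 0, was 1 with a pseudocount of 8 or median centring and 2 with no pseudocount. Without the level filter the median fell to 0.22 at 72 h, against 0.71 with it, to 0.47 for 72 h minus 24 h, to 0.21 for fibril-associated genes and to 0.12 for other genes. With tied genes left out the 72 h median was 0.95 for all collagen genes, 0.85 for type IV and 0.89 for other genes. The type IV median was 1.62 with the filter at the 60th percentile and 0.89 with types XV and XVIII added, and the fibrillar median 1.08 with the mean over probe sets. No paired analysis was possible because each group has 1 array.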
